A study of Mus musculus with 22 samples.

Results

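H19, Igf2, Ascl2, Kcnq1ot1, Cdkn1c, Slc22a18 and Phlda2 are 7 genes of one imprinted region of mouse chromosome 7. They were taken by symbol from the deposited tables, and all 7 were found among the 55055 genes that every count table holds. The group was selected on results of these data. H19 had been chosen by its difference in 3 comparisons: Hox-/- against wild type in endoderm cultures, the same in Activin A gastruloids at 120 h, and 120 h against 96 h in Hox-/- Activin A gastruloids. Values from those comparisons, and from Hox-/- endoderm cultures against Hox-/- mES cells, which rest on the same libraries, are given as a description with no test. The 8 other comparisons were tested. Of these, 3 hold none of the libraries that chose H19: the genotypes in mES cells, Activin A against Chiron at 96 h, and time under Chiron. The other 5 share libraries with the choice, so in them H19 is given by its values with no test and the counts are of the other 6 genes.

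The study measured poly(A) RNA in 22 libraries of 10 groups. Mouse embryonic stem (mES) cells, wild type and Hox-/-, gave 2 libraries per genotype and were grown with LIF, 3 µM CHIR99021 (an inhibitor of GSK-3, which switches on WNT signalling) and 1 µM PD0325901 (a MEK inhibitor). Endoderm cultures of both genotypes, 3 libraries each, were the same cells in adherent culture given 100 ng/ml Activin A with 3 µM CHIR99021 and collected at 120 h. Gastruloids are free-floating aggregates of mES cells that form tissues of the early embryo. Both genotypes were grown as gastruloids with Activin A, and wild type also with Chiron; each such condition was sampled at 96 h and at 120 h in 2 libraries, and the labels give no dose for them. The Hox-/- libraries bear the name BADC in their titles, and the number of clones behind each genotype is not given, so genotype and cell line cannot be told apart. Nothing in the labels ties replicates to separate cultures, so p-values measure the spread between these libraries, which may be technical.

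Imprinted genes are expressed from 1 parental copy. At the H19 end of the region a control element methylated on the paternal copy binds CTCF on the maternal copy, where it blocks Igf2 and leaves enhancers to H19; Igf2 is thus paternal and H19 maternal. Further along, the promoter of the long noncoding RNA Kcnq1ot1 is active on the paternal copy, where the RNA silences Cdkn1c, Phlda2, Slc22a18, Ascl2 and others, so that these are expressed from the maternal copy. The libraries do not separate the parental copies, so every value below is the sum of both. In bulk samples, fewer cells of a type and less RNA per cell cannot be told apart.

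Positions are those of the files, on the mm10 build, and all 7 lie on chromosome 7. H19 (ENSMUSG00000000031, 142575529 to 142578143, minus strand) is a noncoding RNA. Igf2 (ENSMUSG00000048583, 142650766 to 142666816, minus strand) encodes a secreted growth factor of the embryo. Ascl2 (ENSMUSG00000009248, 142966829 to 142969264, minus strand) encodes a transcription factor needed in the placenta. Kcnq1ot1 (ENSMUSG00000101609, 143203458 to 143296549, minus strand) runs antisense inside Kcnq1, the potassium channel gene. Cdkn1c (ENSMUSG00000037664, 143458339 to 143461050, minus strand) encodes p57, an inhibitor of cyclin-dependent kinases. Slc22a18 (ENSMUSG00000000154, 143473736 to 143499334, plus strand) encodes a membrane transporter. Phlda2 (ENSMUSG00000010760, 143501545 to 143502993, minus strand) encodes a pleckstrin homology domain protein that restrains placental growth. From the start of H19, the start of Igf2 lies 88.7 kb away, that of Ascl2 391.1 kb, Kcnq1ot1 718.4 kb, Cdkn1c 882.9 kb, Slc22a18 895.6 kb and Phlda2 924.9 kb.

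H19 is the host of a microRNA. That sequence is shown because H19 had the widest range of scaled counts here, in part through the libraries that chose it. MicroRNAs themselves were not measured. In RefSeq (GRCm38.p6) the Mir675 hairpin lies at chr7:142577064-142577147 on the minus strand. By GENCODE M21 the hairpin is inside the first or the second exon of 3 of the 7 annotated H19 transcripts. Its 84 bases are given first, with both mature arms in capitals, followed by the mature RNAs with the seed, bases 2 to 8, in capitals.
Mir675 hairpin: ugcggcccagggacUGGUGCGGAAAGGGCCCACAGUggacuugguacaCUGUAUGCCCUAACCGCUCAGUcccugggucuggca
miR-675-5p: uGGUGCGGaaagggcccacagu
miR-675-3p: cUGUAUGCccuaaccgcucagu
The arms have different seeds.

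Promoters are shown for Kcnq1ot1 and for Phlda2 and Slc22a18, because the values below set that noncoding RNA against the coding genes of its end of the region. Each is the 250 bases before the start site in RefSeq (GRCm38.p6), which had an entry for 5 of the 7 genes. The RefSeq start sites differ from the gene ends given above. By those ends the whole Phlda2 window lies inside the gene, and the Slc22a18 window runs past the start of the gene. Capitals mark matches on either strand to CCAAT (the NF-Y box), GGGCGG (the GC box), TATAAA (the TATA box) or TGCCGC (the core of the ZFP57 site). None of these motifs overlaps another in these windows.
Kcnq1ot1, chr7:143296548-143296797, minus strand: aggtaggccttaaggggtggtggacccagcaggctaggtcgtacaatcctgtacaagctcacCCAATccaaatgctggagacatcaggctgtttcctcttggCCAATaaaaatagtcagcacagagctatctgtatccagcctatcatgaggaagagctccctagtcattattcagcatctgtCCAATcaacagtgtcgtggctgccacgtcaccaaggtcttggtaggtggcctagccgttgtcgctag
Phlda2, chr7:143502525-143502774, minus strand: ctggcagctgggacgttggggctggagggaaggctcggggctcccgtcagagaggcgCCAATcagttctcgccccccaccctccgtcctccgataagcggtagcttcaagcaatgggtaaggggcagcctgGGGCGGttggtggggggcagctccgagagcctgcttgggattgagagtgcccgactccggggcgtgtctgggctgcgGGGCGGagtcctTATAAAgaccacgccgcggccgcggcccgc
Slc22a18, chr7:143473539-143473788, plus strand: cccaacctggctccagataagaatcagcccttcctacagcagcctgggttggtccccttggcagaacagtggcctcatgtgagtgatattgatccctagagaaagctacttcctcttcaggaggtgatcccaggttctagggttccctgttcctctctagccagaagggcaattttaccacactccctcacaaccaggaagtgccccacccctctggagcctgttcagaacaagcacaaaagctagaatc
The Kcnq1ot1 window held 3 matches to CCAAT and none to the other motifs. The Phlda2 window held 1 CCAAT, 2 GGGCGG and 1 TATAAA, and the Slc22a18 window held no match. Ascl2, not printed, had 3 CCAAT and 1 GGGCGG. Among 32851 windows of the same length, 33.8% held CCAAT, 32.7% GGGCGG, 12.4% TATAAA and 8.68% TGCCGC. CpG dinucleotides numbered 21 in the Phlda2 window, 5 in that of Kcnq1ot1 and 0 in that of Slc22a18, against a median of 6 over all windows. A match is a description of the letters and not a bound site.

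Library totals ran from 9108085 to 28819301 counts, and 3 counts, taken as the floor of detection, were 0.1041 to 0.3294 CPM (a gene's counts scaled to a common library total). Where all libraries of 1 group were at the floor, the ratio of counts is given with its counting interval, and a fitted log2 value there depends on the fit. The 39 Hox genes summed to 30.4 to 35.7 CPM in wild-type mES cells against 0.448 to 1.34 in Hox-/- mES cells, and were lower in Hox-/- in each other culture too. Y-linked Ddx3y, Eif2s3y, Uty and Kdm5d summed to 98.8 to 185 CPM in wild-type libraries and to at most 0.345 CPM in Hox-/- libraries, a difference between the lines beside the Hox genes; its part in the results was not tested. Pluripotency markers were high in mES cells (5604 to 5839 CPM summed) and the 6 definitive endoderm markers summed to 113.8 to 125.9 CPM in wild-type endoderm cultures against 52.71 to 61.04 in Hox-/- ones. The endoderm cultures also held lateral mesoderm and mesenchyme markers, at 288.4 to 354.4 CPM in wild type and 489.9 to 511.9 in Hox-/-. Within that sum Col1a1 held 138.4 CPM in wild type against 344.8 in Hox-/-, and Pdgfra 69.63 against 29.59. Pluripotency markers summed to 769.1 to 905.5 CPM in wild-type and 227.7 to 248.8 in Hox-/- endoderm cultures. The endoderm cultures are mixed cultures, as the labels' cell type also says.

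The count of Igf2 needs care. Dividing its CPM by its FPKM (fragments scaled for the length of the transcript as well, from the tables of the authors) gives an effective length of 207.6 bases, 0.0363 of its 5723 exonic bases, the lowest share among 738 genes of chromosome 7 with a mean of at least 10 CPM, whose median was 0.718. Of those exonic bases 62.8% are shared with Gm49394 on the same strand. Counts of Igf2 are thus uncertain, and its FPKM is given beside them. The FPKM has a limit too. Igf2os, whose exons overlap those of Igf2 on the other strand, held 77.67 CPM in wild-type Activin A gastruloids at 120 h and 92.13 CPM in Chiron gastruloids at 96 h. Its FPKM was 0 in both groups. Whether the FPKM of Igf2 holds reads of Igf2os was not tested. For Cdkn1c, Slc22a18 and Ascl2 the share was 0.993 to 1.01. Cdkn1c shares 30.7% of its exonic bases with Gm44732 on the other strand, and whether the counting used strand is not given in the sources used here.

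Across the 10 groups H19 had the widest range of the 7 genes in CPM. The top of that range comes from the Hox-/- libraries by which H19 was chosen. In FPKM the group means of H19 ran from 1.171 to 1947 and those of Igf2 from 0.2832 to 481.5. H19 was lowest in mES cells, at 3.386 and 1.555 CPM in wild type and 2.092 and 2.689 CPM in Hox-/-. It reached 4047, 4228 and 4181 CPM in Hox-/- endoderm cultures. Hox-/- Activin A gastruloids at 120 h came next, at 2279 and 2342 CPM. Every wild-type group lay lower: 342.4, 387 and 423.1 CPM in endoderm cultures, 276.7 and 277.4 CPM in Activin A gastruloids at 120 h, 242.7 and 219.4 CPM in Chiron gastruloids at 120 h, and 246.4 and 176 CPM in Chiron gastruloids at 96 h. Libraries of the Chiron groups overlapped, as did those of the mES groups; all other neighbours in the order were apart.

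Kcnq1ot1 varied over a narrower range and followed the culture more than the genotype. It was lowest in mES cells (3.851 and 3.264 CPM in wild type, 3.959 and 4.201 in Hox-/-), intermediate in 96 h gastruloids (10.18 to 15.24 CPM over the 6 libraries), then 15.98 to 32.91 CPM over the 6 endoderm libraries, and 40.5 to 50.21 CPM over the 6 libraries of 120 h gastruloids. The 3 groups at 120 h overlapped. Cdkn1c was highest in wild-type Activin A gastruloids, at 101 and 99.14 CPM at 120 h, and was at most 17.77 CPM in every Hox-/- library and in Chiron gastruloids at 96 h. Phlda2 peaked in Chiron gastruloids at 96 h, at 31.15 and 33.66 CPM, and lay under 9 CPM in every other library. Slc22a18 and Ascl2 were low throughout, at most 2.635 and 2.324 CPM.

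**Figure D1:**
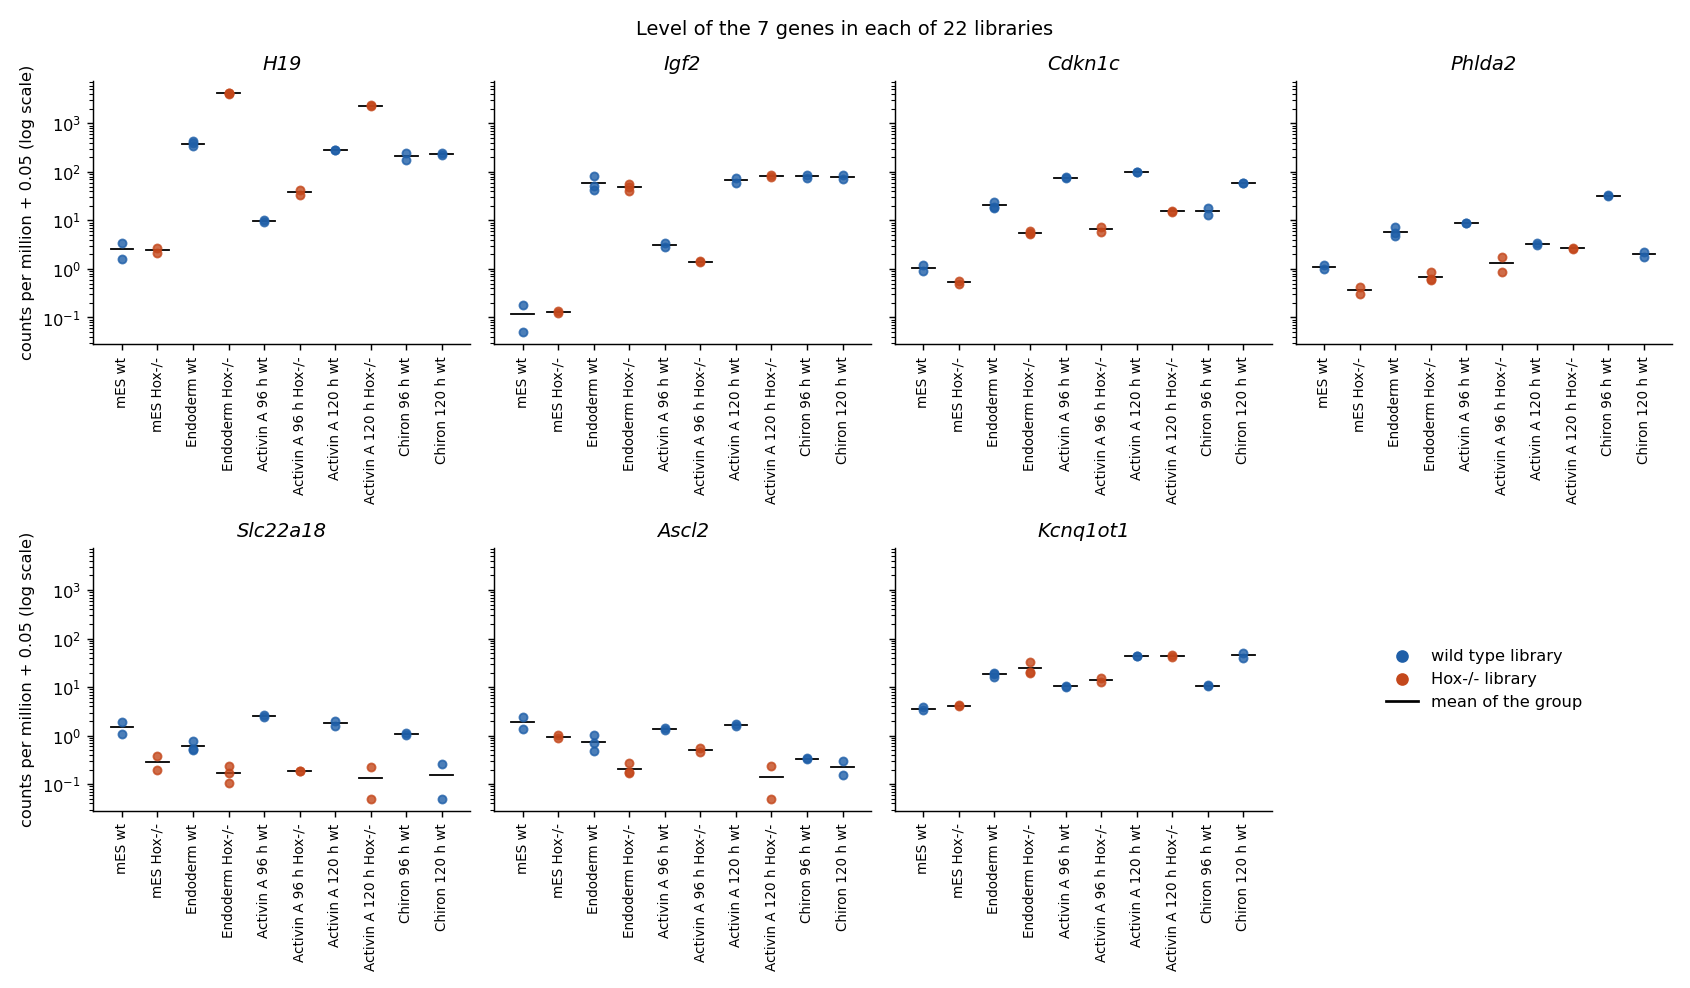
Each panel plots 1 gene, with CPM plus 0.05 on a log axis, 10 groups along the bottom, a point per library (blue, wild type; red, Hox-/-) and a black line at the group mean. H19 spans from 1.555 to 4228 CPM, Kcnq1ot1 from 3.264 to 50.21 CPM, and the red points of Cdkn1c, Phlda2, Slc22a18 and Ascl2 lie under the blue ones of the same culture.

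Per length, in FPKM, Igf2 was the most abundant of the 7 in wild-type endoderm cultures at 270.3, followed by H19 at 182.5, Cdkn1c at 11.9 and Phlda2 at 9.21. Kcnq1ot1, whose RNA is very long, was at 0.183 FPKM there. The order of the first 2 rests on the FPKM of Igf2: on counts, which are doubtful for Igf2, H19 stood at 384.2 and Igf2 at 58.17 CPM in the same libraries.

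Hox-/- and wild type were compared first in mES cells. Of the 7 genes 6 were tested and 3 fell below wild type by edgeR's quasi-likelihood test, at an adjusted p under 0.05; in this comparison 23.2% of all 13631 genes tested were called. All 3 belong to the end of the region that Kcnq1ot1 controls, but so did every gene tested here other than H19, counting Kcnq1ot1 itself. Slc22a18 held 1.859 and 1.01 CPM in wild type against 0.1494 and 0.3361 CPM in Hox-/- (log2 fold change -2.58 ± 0.55 SE, adjusted p 0.000582). Phlda2 held 0.9296 and 1.166 CPM against 0.3735 and 0.2521 CPM (log2 fold change -1.69 ± 0.533 SE, adjusted p 0.019). Ascl2 held 2.324 and 1.321 CPM against 0.9712 and 0.8403 CPM (log2 fold change -1.03 ± 0.377 SE, adjusted p 0.0444). In each of the 3 the libraries of the genotypes were apart, on 6 to 52 counts per group. Those of Kcnq1ot1 were apart too, though it did not pass. The share of all genes with libraries apart was not counted, so such statements, here and elsewhere, only describe the libraries. Cdkn1c was apart as well but did not pass, at 1.129 and 0.855 CPM against 0.4482 and 0.5042 CPM (log2 fold change -1.07 ± 0.488 SE, adjusted p 0.113). H19 (log2 fold change -0.10 ± 0.297 SE, adjusted p 0.86) and Kcnq1ot1 (0.18 ± 0.216 SE, adjusted p 0.59) did not pass, and Igf2, with 2 counts in each group, was not tested. Without the first wild-type library 0 of the 3 passed by edgeR, and leaving out any other library kept 1 or 2 of them. On log2(FPKM + 1) limma called 0 of the 3 (adjusted p 0.128 for Phlda2, 0.155 for Slc22a18 and 0.257 for Ascl2), and DESeq2 gave none of them an adjusted p. At an unadjusted p under 0.05 edgeR called 4731 genes in this comparison.

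In Activin A gastruloids at 96 h all 6 genes other than H19 passed the test, 1 higher and 5 lower in Hox-/-, against 38.9% of all 16831 genes tested. Over all genes 3729 were higher and 2817 lower, and with library totals as the only scaling 2752 and 3717, while the 7 genes kept their directions. The 4 coding genes near Kcnq1ot1 were lower in Hox-/-, Igf2 was lower, and Kcnq1ot1 was higher, as was the noncoding RNA H19 by its values. Cdkn1c, the kinase inhibitor, held 76.83 and 75.33 CPM in wild type against 7.247 and 5.818 CPM in Hox-/- (log2 fold change -3.46 ± 0.0778 SE, adjusted p 2.71e-37). Phlda2 held 8.798 and 8.758 CPM against 1.73 and 0.8025 CPM (log2 fold change -2.65 ± 0.198 SE, adjusted p 5.29e-16). For both genes the libraries of the genotypes were far apart. Ascl2 held 1.422 and 1.279 CPM against 0.5143 and 0.4012 CPM (log2 fold change -1.46 ± 0.387 SE, adjusted p 0.00206; 0.0632 by DESeq2). Slc22a18 held 2.355 and 2.635 CPM in wild type, 121 counts in all, and 5 counts in all in Hox-/-, which is at the floor; the ratio of wild type to Hox-/- was 18.2 with an exact 95% counting interval of 7.59 to 57.1 (edgeR adjusted p 9.16e-11).

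H19 differed the other way at 96 h. As a description, it held 10.35 and 9.145 CPM in wild type and 42.17 and 33.77 CPM in Hox-/- (log2 fold change 2.04 ± 0.0842 SE). Kcnq1ot1 held 10.18 and 10.46 CPM against 15.24 and 12.44 CPM (log2 fold change 0.50 ± 0.1 SE, adjusted p 7.15e-05), a call that was lost on log2(FPKM + 1) (adjusted p 0.179) and without the first Hox-/- library (adjusted p 0.052). Igf2 held 3.377 and 2.751 CPM against 1.403 and 1.337 CPM (log2 fold change -1.09 ± 0.243 SE, adjusted p 0.00028). Its FPKM gave the same direction, at 17.31 and 14.07 in wild type and 7.64 and 7.978 in Hox-/- (limma on log2(FPKM + 1), difference -0.92 ± 0.0951 SE, adjusted p 0.00519). Hence H19 was higher and Igf2 lower in the same 2 libraries. In these libraries the 6 definitive endoderm markers summed to 28.62 to 32.4 CPM against 397.5 to 451.1 in wild type, and the 10 trophoblast markers to 55.77 to 59.43 against 199.1 to 210.6, with Tpbpa and Prl3d1 at 0 in both. Most of the trophoblast sum was Eomes, at 31.65 against 172.8 CPM, while Tfap2c held 23.84 against 24.02 CPM and 2 of the 5 of these markers that were tested passed. The part of cell makeup in these results was not tested.

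In Hox-/- endoderm cultures the values are a description. H19 had 342.4, 387 and 423.1 CPM in wild type and 4047, 4228 and 4181 CPM in Hox-/- (log2 fold change 3.44 ± 0.0748 SE). Cdkn1c had 19.31, 18.4 and 23.49 CPM against 5.568, 5.105 and 5.984 CPM (-1.87 ± 0.122 SE). Phlda2 had 4.705, 5.342 and 7.222 CPM against 0.7954, 0.5536 and 0.5669 CPM (-3.14 ± 0.259 SE). Wild type and Hox-/- did not overlap for any of the 3, nor in CPM for Slc22a18, Ascl2 and Kcnq1ot1. The share of all genes without overlap was not counted. Slc22a18, with 23 counts over the wild-type libraries and 6 over the Hox-/- ones, gave a ratio of wild type to Hox-/- of 4.63 (exact 95% counting interval 1.83 to 13.9). Ascl2, with 28 and 8 counts, gave 4.23 (1.88 to 10.7). Kcnq1ot1 had 19.63, 18.99 and 15.98 CPM against 20.23, 32.91 and 19.84 CPM (0.43 ± 0.161 SE), and the second Hox-/- library stood above the other two. Igf2 overlapped between the genotypes, at 42.34, 50.32 and 81.85 CPM against 56.59, 47.67 and 40.19 CPM; its FPKM did not, at 237.9 to 324.2 against 204.4 to 225.2. The 8 visceral endoderm markers summed to 118 to 146.9 CPM in wild type and 28.52 to 40.35 in Hox-/-. Most of the wild-type sum was Apob, at 93.24 CPM against 15.02 in Hox-/-. Sox7 held 5.844 against 5.902 CPM, and the rest were lower in Hox-/- by group mean. Ttr (0.8937 against 0.2166 CPM) and Afp (0.2008 against 0.1024) were low in both genotypes. Pluripotency markers summed to 769.1 to 905.5 CPM against 227.7 to 248.8, and lateral mesoderm and mesenchyme markers to 288.4 to 354.4 against 489.9 to 511.9. The part of these markers in these values was not tested.

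In Activin A gastruloids at 120 h, again as a description, H19 had 276.7 and 277.4 CPM in wild type against 2279 and 2342 CPM in Hox-/- (log2 fold change 3.17 ± 0.0471 SE). Cdkn1c had 101 and 99.14 CPM against 15.52 and 14.96 CPM (-2.60 ± 0.0787 SE). For both the libraries of the genotypes did not overlap, and the share of all genes without overlap was not counted. Slc22a18 had 32 counts over the wild-type libraries and 2 over the Hox-/- ones, a ratio of 19.4 (exact 95% counting interval 4.96 to 167), and Ascl2 had 30 and 2, a ratio of 18.2 (4.62 to 157). Phlda2 differed little at this time, at 3.459 and 3.074 CPM against 2.586 and 2.712 CPM (-0.19 ± 0.281 SE), although its libraries did not overlap either. Kcnq1ot1 overlapped, at 44.1 and 43.59 CPM against 45.69 and 41.61 CPM (0.11 ± 0.0805 SE). Igf2 was higher in Hox-/- at 84.91 and 79.4 CPM against 74.37 and 60.17 CPM (0.40 ± 0.0704 SE), and at 379.6 and 376.5 FPKM against 345.8 and 327. In these libraries the 6 paraxial mesoderm markers summed to 1207 to 1217 CPM in Hox-/- against 460.7 to 472.3 in wild type. Definitive endoderm markers, 6 in all, summed to 148.9 to 152.9 against 394 to 407.4. Most of the Hox-/- endoderm sum was Cxcr4, at 115.3 against 118.7 CPM. Each of the others was lower in Hox-/-, among them Sox17 (3.777 against 57.35 CPM) and Foxa2 (1.926 against 63.11). The part of these markers in these values was not tested.

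**Figure D2:**
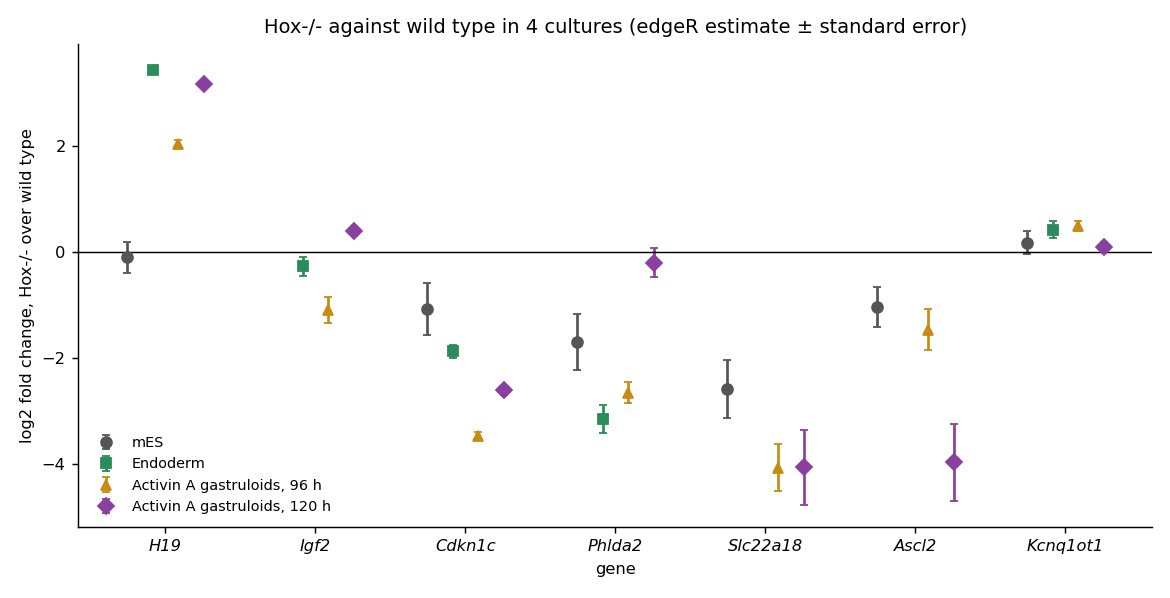
Points give edgeR's log2 fold change of Hox-/- over wild type for each gene in mES cells, endoderm cultures and Activin A gastruloids at 96 h and 120 h; bars are standard errors. Igf2 in mES cells and Slc22a18 and Ascl2 in endoderm cultures had too few counts to be fitted, and the points of Slc22a18 in gastruloids and of Ascl2 at 120 h rest on Hox-/- groups at the floor, so their size depends on the fit. Outside mES cells H19 lies at 2.04 to 3.44 and Cdkn1c at -1.87 to -3.46. In mES cells Cdkn1c lies at -1.07, which did not pass.

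Summed over Cdkn1c, Phlda2, Slc22a18 and Ascl2, the coding genes that Kcnq1ot1 controls held 4.353 to 6.241 CPM in wild-type mES cells against 1.933 to 1.942 in Hox-/- ones, 24.86 to 31.88 against 5.905 to 6.866 in endoderm cultures, 88 to 89.4 against 7.155 to 9.632 in 96 h gastruloids and 105.3 to 108.1 against 17.86 to 18.27 in 120 h gastruloids. The sum is mostly Cdkn1c outside mES cells. Kcnq1ot1 was not lower in Hox-/- than in wild type by group mean in these cultures, except at 120 h, where the means were 43.65 and 43.84 CPM.

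The level of H19 relative to Igf2 was taken per length, as the ratio of their FPKM in each library. The limit on the FPKM of Igf2 given above applies to this ratio. In wild type the ratio was 0.624 to 0.741 in endoderm cultures, 0.333 and 0.359 in Activin A gastruloids at 96 h, 0.395 and 0.424 at 120 h, 0.342 and 0.302 in Chiron gastruloids at 96 h, and 0.24 and 0.236 at 120 h. In Hox-/- it was 8.78 to 9.69 in endoderm cultures, 2.77 and 2.12 in gastruloids at 96 h and 3.09 and 3.26 at 120 h. So by FPKM Igf2 exceeded H19 in every differentiated wild-type library, and H19 exceeded Igf2 in every differentiated Hox-/- library. These Hox-/- libraries were all in the comparisons that chose H19, so the ratios are a description and not separate support. The side of 1 on which the wild-type ratio lies rests on the FPKM of Igf2, since on counts H19 was above Igf2 in wild type too, at 384.2 against 58.17 CPM in endoderm cultures, 277.1 against 67.27 in Activin A gastruloids at 120 h and 231 against 79.1 in Chiron gastruloids at 120 h. In mES cells both were low (Igf2 at 0.233 to 0.4921 FPKM). The ratios there, 1.39 to 4.38 over both genotypes and so above 1 in wild type too, rest on at most 2 Igf2 counts per library.

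**Figure D3:**
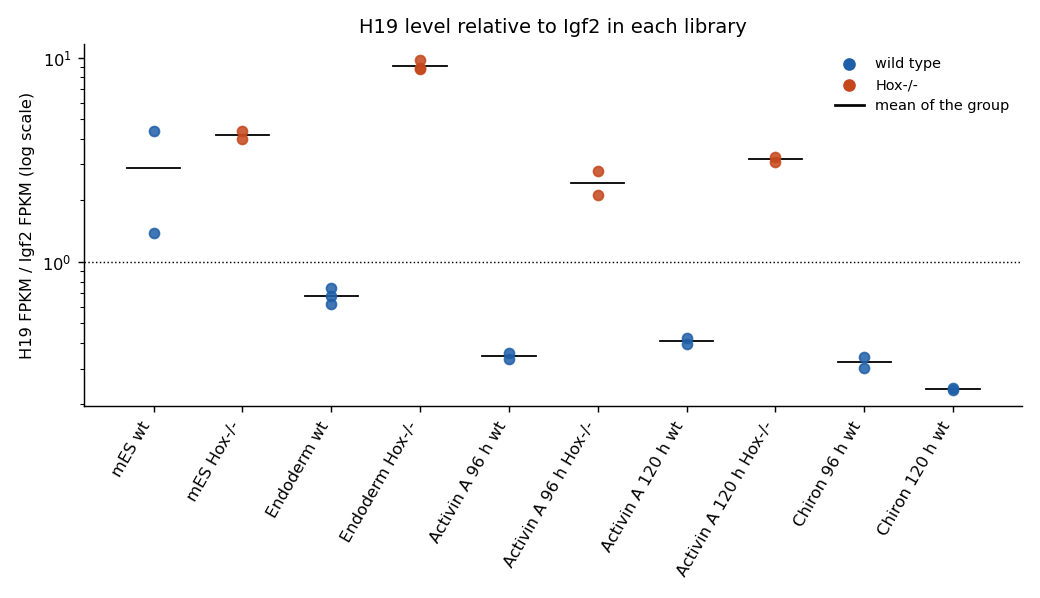
Each point is the ratio of H19 FPKM to Igf2 FPKM in 1 library, on a log axis, with a black line at the group mean and a dotted line at 1. Outside mES cells the wild-type points lie at 0.236 to 0.741 and the Hox-/- points at 2.12 to 9.69.

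Wild-type Activin A and Chiron gastruloids were compared to see how the treatment bears on the region. At 96 h 6 of the 7 genes passed, against 61.6% of all 17305 genes tested, with 3 higher and 3 lower under Activin A. H19 and Igf2 were far lower: H19 held 10.35 and 9.145 CPM under Activin A against 246.4 and 176 CPM under Chiron (log2 fold change -4.50 ± 0.123 SE, adjusted p 1.37e-19), and Igf2 held 3.377 and 2.751 CPM against 88.33 and 74.6 CPM (-4.80 ± 0.132 SE, adjusted p 1.52e-19). In FPKM, Igf2 was at 17.31 and 14.07 against 373.9 and 300.2. Phlda2 was also lower, at 8.798 and 8.758 CPM against 31.15 and 33.66 CPM (-1.95 ± 0.0918 SE, adjusted p 5.96e-15). The other 3 coding genes of that end were higher: Cdkn1c held 76.83 and 75.33 CPM against 13.09 and 17.77 CPM (2.22 ± 0.0837 SE, adjusted p 7.56e-17), Slc22a18 2.355 and 2.635 against 0.9734 and 1.11 CPM (1.18 ± 0.264 SE, adjusted p 0.000482), and Ascl2 1.422 and 1.279 against 0.292 and 0.2776 CPM (2.16 ± 0.374 SE, adjusted p 2.73e-05). Kcnq1ot1 did not pass, at 10.18 and 10.46 against 10.71 and 10.76 CPM (-0.12 ± 0.111 SE, adjusted p 0.363). The 6 paraxial mesoderm markers summed to 164.2 to 175.6 CPM under Activin A against 1335 to 1554 under Chiron. Definitive endoderm markers, 6 in all, summed to 397.5 to 451.1 against 117 to 156.5. Cxcr4 made up most of the Chiron endoderm sum and went the other way, at 63.43 CPM under Activin A against 101 under Chiron. The other 5 were higher under Activin A, among them Sox17 (61.02 against 1.434 CPM) and Foxa2 (80.82 against 1.587). The part of these markers in these results was not tested. The wild-type Activin A libraries in this comparison are also the controls of the genotype comparison.

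At 120 h 5 of the 6 genes other than H19 passed, 4 higher and 1 lower under Activin A, against 41.9% of all genes tested. Slc22a18 held 32 counts under Activin A and 2 under Chiron, a ratio of 18.6 (exact 95% counting interval 4.75 to 160; edgeR adjusted p 5.83e-05), and Ascl2 held 30 and 4, a ratio of 8.73 (3.08 to 34.1; adjusted p 0.000194). Cdkn1c held 101 and 99.14 CPM against 58.51 and 57.79 CPM (log2 fold change 0.73 ± 0.0828 SE, adjusted p 1.53e-07). These 3 were higher under Activin A with no overlap of libraries. Phlda2, at 3.459 and 3.074 against 2.179 and 1.696 CPM (0.68 ± 0.267 SE, adjusted p 0.0445), and Igf2, at 74.37 and 60.17 against 86 and 72.21 CPM (-0.29 ± 0.1 SE, adjusted p 0.0219), passed narrowly; neither passed by DESeq2, without the first Chiron library or without the second Activin A library. H19, as a description, held 276.7 and 277.4 against 242.7 and 219.4 CPM (0.21 ± 0.0949 SE), and Kcnq1ot1 overlapped and did not pass (-0.11 ± 0.0935 SE, adjusted p 0.371).

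Wild-type Activin A gastruloids had far more H19 and Igf2 at the later time. From 96 h to 120 h 4 of the 6 genes other than H19 passed, 3 higher and 1 lower at 120 h, against 74.9% of all genes tested, so the count does not stand above the background. H19, as a description, held 10.35 and 9.145 CPM at 96 h and 276.7 and 277.4 CPM at 120 h (log2 fold change 4.76 ± 0.0688 SE). Igf2 rose from 3.377 and 2.751 to 74.37 and 60.17 CPM (4.39 ± 0.11 SE, adjusted p 4.78e-36). Kcnq1ot1 rose from 10.18 and 10.46 to 44.1 and 43.59 CPM (2.01 ± 0.0911 SE, adjusted p 3.37e-25). Cdkn1c rose slightly (0.32 ± 0.0525 SE, adjusted p 4.87e-07) and Phlda2 fell from 8.798 and 8.758 to 3.459 and 3.074 CPM (-1.50 ± 0.198 SE, adjusted p 3.59e-09). Slc22a18 (-0.59 ± 0.301 SE, adjusted p 0.0703) and Ascl2 (0.20 ± 0.348 SE, adjusted p 0.604) did not pass. In the Hox-/- Activin A gastruloids, as a description, H19 went from 42.17 and 33.77 to 2279 and 2342 CPM (5.89 ± 0.056 SE), Igf2 from 1.403 and 1.337 to 84.91 and 79.4 CPM (5.88 ± 0.128 SE), Cdkn1c from 7.247 and 5.818 to 15.52 and 14.96 CPM (1.18 ± 0.121 SE) and Kcnq1ot1 from 15.24 and 12.44 to 45.69 and 41.61 CPM (1.62 ± 0.0874 SE). Library totals were larger at 96 h (14953662 to 28819301 counts) than at 120 h (9108085 to 11930416), and the part of depth was not tested.

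The Chiron gastruloids had H19 and Igf2 high already at 96 h. From 96 h to 120 h 4 of the 7 genes passed, against 61.7% of all genes tested, so this count too is near the background. Phlda2 fell from 31.15 and 33.66 to 2.179 and 1.696 CPM (log2 fold change -4.15 ± 0.15 SE, adjusted p 8.06e-17). Slc22a18 fell from 52 counts to 2, a ratio of 96 h to 120 h of 11.3 (exact 95% counting interval 2.96 to 95.4; adjusted p 0.00014). Cdkn1c rose from 13.09 and 17.77 to 58.51 and 57.79 CPM (1.79 ± 0.0926 SE, adjusted p 6.73e-14) and Kcnq1ot1 from 10.71 and 10.76 to 50.21 and 40.5 CPM (1.98 ± 0.0993 SE, adjusted p 3.63e-14). Cdkn1c thus rose while its neighbours Phlda2 and Slc22a18 fell. H19 did not pass (0.03 ± 0.0922 SE, adjusted p 0.789), but its replicates at 96 h decide that: without the first 96 h library it passed as higher at 120 h (0.32 on the log2 scale) and without the second as lower (-0.17). Igf2 did not pass on counts (-0.14 ± 0.0901 SE, adjusted p 0.194), while its FPKM went from 373.9 and 300.2 to 499.7 and 463.4 and passed in the other direction (limma on log2(FPKM + 1), 0.52 ± 0.142 SE, adjusted p 0.0344).

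Whether the treatments differed in their change over time was tested as an interaction, Activin A minus Chiron at 120 h less the same at 96 h. Of the 6 genes other than H19, 4 passed, against 39.6% of all genes tested. The difference on the log2 scale was 4.71 ± 0.158 SE for H19, as a description, and 4.50 ± 0.175 SE for Igf2 (adjusted p 9.86e-16). It was 2.63 ± 0.287 SE for Phlda2 (adjusted p 1.03e-07), 2.88 ± 0.835 SE for Slc22a18 (adjusted p 0.00818), and -1.48 ± 0.119 SE for Cdkn1c (adjusted p 5.98e-10). The Slc22a18 value rests on a Chiron group at the floor: it was 1.78 without the first 120 h Chiron library (adjusted p 0.136), 6.72 without the second, and 0.15 by limma on log2(FPKM + 1). For Kcnq1ot1 it was 0.01 ± 0.144 SE (adjusted p 0.974); and for Ascl2 0.87 ± 0.8 SE (adjusted p 0.42).

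**Figure D4:**
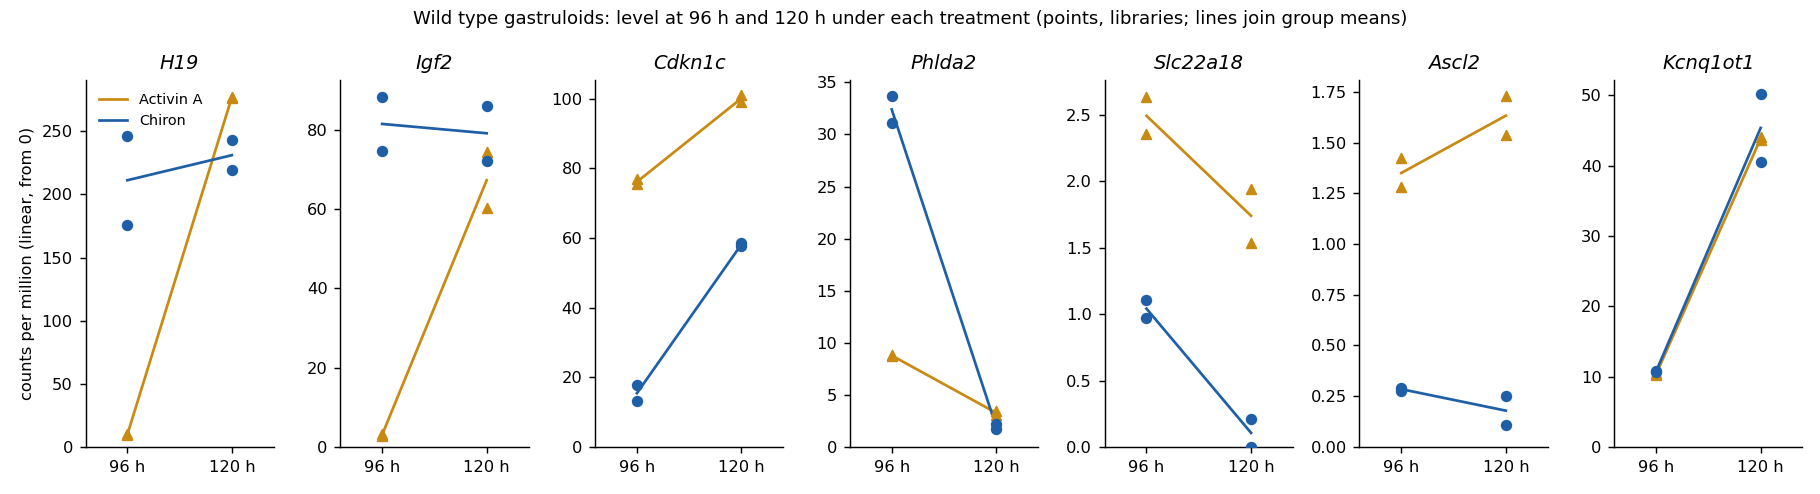
Each panel plots 1 gene in wild-type gastruloids, with CPM on a linear axis from 0, 96 h and 120 h along the bottom, points for libraries and lines joining the group means (orange triangles, Activin A; blue circles, Chiron). H19 and Igf2 start near 0 under Activin A and end beside the Chiron values, and the Kcnq1ot1 lines run close together.

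Wild-type endoderm cultures were set against wild-type mES cells in a fit over both tables; the culture and the table cannot be told apart. All 6 genes other than H19 passed, against 79.9% of all 16251 genes tested, a background too high to read the count by. H19, as a description, held 3.386 and 1.555 CPM in mES cells and 342.4, 387 and 423.1 CPM in endoderm cultures (log2 fold change 7.12 ± 0.148 SE). Cdkn1c rose from 1.129 and 0.855 to 19.31, 18.4 and 23.49 CPM (4.22 ± 0.201 SE, adjusted p 1.08e-13), Phlda2 from 0.9296 and 1.166 to 4.705, 5.342 and 7.222 CPM (2.35 ± 0.28 SE, adjusted p 1.99e-07) and Kcnq1ot1 from 3.851 and 3.264 to 19.63, 18.99 and 15.98 CPM (2.23 ± 0.233 SE, adjusted p 2.85e-08). Igf2 rose from 2 counts to 2407, a ratio of 816 (exact 95% counting interval 226 to 6.74e+03; edgeR adjusted p 3.79e-12). Slc22a18 fell from 1.859 and 1.01 to 0.4867, 0.4617 and 0.7295 CPM (-1.49 ± 0.413 SE, adjusted p 0.00276) and Ascl2 from 2.324 and 1.321 to 0.9734, 0.6595 and 0.4377 CPM (-1.55 ± 0.378 SE, adjusted p 0.000939); both calls were lost without the first wild-type mES library. In Hox-/- the same step, as a description, gave 10.69 ± 0.152 SE for H19, 3.44 ± 0.299 SE for Cdkn1c, 0.92 ± 0.532 SE for Phlda2 and 2.49 ± 0.222 SE for Kcnq1ot1.

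The files hold 53 other genes within 250 kb of the span from H19 to Phlda2, of which 19 had enough counts to be tested in 96 h Activin A gastruloids. Between the genotypes 7 of them were higher and 4 lower in Hox-/-, 11 of 19 beside 38.9% of all genes tested, with a median log2 fold change of 0.08 against 0.03 over all genes tested. Cd81, a tetraspanin gene, was higher at 201.8 ± 9.65 against 167.6 ± 1.59 CPM (SD, n = 2 each; 0.32 ± 0.0408 SE, adjusted p 8.48e-09). Gm44732, which overlaps Cdkn1c on the other strand, was lower at 0.2974 ± 0.0423 against 2.221 ± 0.127 CPM (-2.79 ± 0.38 SE, adjusted p 3.63e-08), and Igf2os, on the strand opposite Igf2, was lower at 4.1 ± 0.443 against 7.225 ± 0.414 CPM (-0.79 ± 0.138 SE, adjusted p 7.32e-06). Both are antisense partners, so reads of the members and theirs may not be separable. In mES cells, beside 23.2% of all genes called, 1 of 10 was higher, Tnfrsf22 (0.50 ± 0.0867 SE, adjusted p 4.25e-05), and 1 lower, Cd81 (-0.16 ± 0.0465 SE, adjusted p 0.0129).

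**Figure D5:**
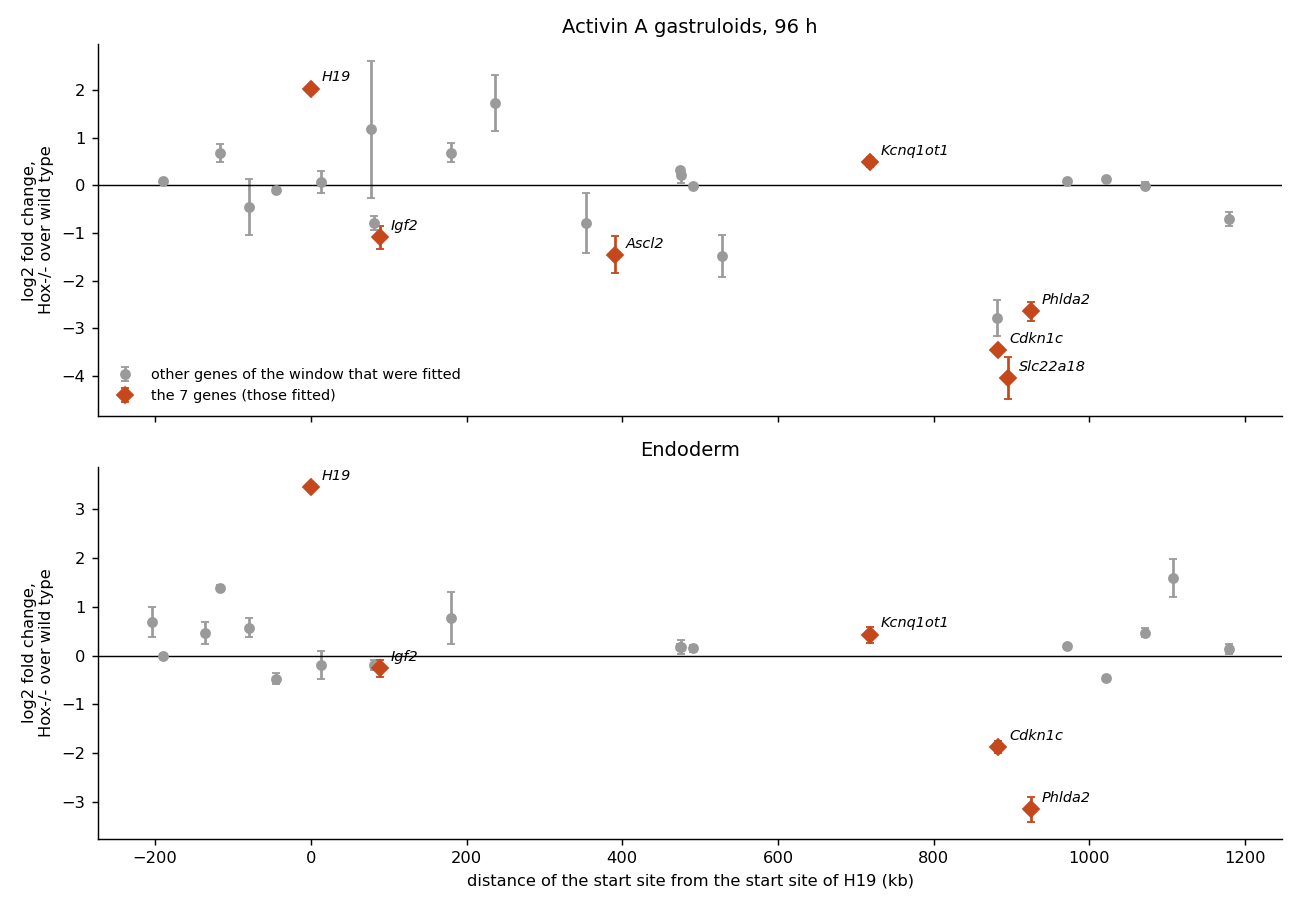
Points give edgeR's log2 fold change of Hox-/- over wild type, with standard errors, by the distance of each gene's start site from that of H19 in kb; red diamonds are the 7 genes and grey points the other genes of the window that had enough counts. In 96 h Activin A gastruloids (top) Slc22a18 and Cdkn1c lie lowest, with Gm44732 at -2.79 and Phlda2 at -2.65 next; in endoderm cultures (bottom), shown as a description, H19 at 3.44 lies highest.

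Lsp1, which encodes an actin-binding protein of white blood cells, lies in the window on the far side of H19 and is the neighbour most like H19 in the measure given below. That measure uses the same libraries as the tests of Lsp1 here, so these tests are not separate support for a likeness to H19. It rose in wild-type Activin A gastruloids from 2.068 ± 0.0344 to 10.41 ± 0.5 CPM (log2 fold change 2.25 ± 0.174 SE, adjusted p 3.1e-16). It was lower under Activin A than under Chiron at 96 h (-2.84 ± 0.149 SE, adjusted p 5.2e-14), and the interaction of treatment and time was 3.05 ± 0.229 SE (adjusted p 1.77e-10). As a description, it was at 137 ± 5.72 CPM in Hox-/- against 52.48 ± 1.3 in wild-type endoderm cultures, and at 57.83 ± 1.24 against 10.41 ± 0.5 CPM in 120 h gastruloids. Of the 18 neighbours tested over both treatments, 8 were higher and 9 lower under Activin A at 96 h (beside 61.6% of all genes called), and 5 higher and 2 lower at 120 h (beside 41.9%), when Tnnt3 (2.60 ± 0.34 SE, adjusted p 1.38e-06) and Osbpl5 (1.33 ± 0.196 SE, adjusted p 7.09e-06), a lipid transfer gene beyond Phlda2, were among the higher.

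Among all genes with a group mean of at least 10 CPM, likeness to a member was measured as Pearson's r of log2(CPM + 1) over the 10 group means, as a description; the points share libraries and cultures. The genes most like H19 were Pank3 (r = 0.977), Camsap1 (0.974), Nckap5l (0.974), Lsp1 (0.970) and Adamtsl2 (0.969). Those most like Igf2 were Tmem132c (0.990), Rhou (0.982), Stra6l (0.978), Pcsk5 (0.977) and Kctd15 (0.975). For Cdkn1c they were 2510002D24Rik (0.957), Commd7 (0.957), Actr5 (0.954), Tatdn1 (0.954) and Mydgf (0.953), and for Phlda2 Elp3 (0.909), Orc3 (0.851), Aco1 (0.849), F11r (0.846) and Pycr1 (0.838). Kcnq1ot1 was most like Acap3 (0.988), Zkscan3 (0.984) and Clk3 (0.983), Slc22a18 most like Trh (0.886), Fam114a2 (0.848) and Hhex (0.817), and Ascl2 most like Fzd5 (0.928), Eras (0.910) and Thpo (0.904). Lsp1 is the only one of these from the window. These genes had the highest r among 11717 or 11718 genes compared over 10 points, and r does not measure the size of a change. By group mean Pank3 ran from 64.99 to 104.9 CPM and Camsap1 from 69.53 to 129.1, while H19 ran from 2.39 to 4152 and Lsp1 from 0.03735 to 137. Elp3 ran from 147.8 to 197 CPM and Fam114a2 from 50.41 to 68.56. Between members r was 0.88 for H19 and Igf2, 0.79 for Slc22a18 and Ascl2, and 0.52 for Cdkn1c and Phlda2. For Kcnq1ot1 it was 0.83 with Igf2, 0.82 with H19, 0.71 with Cdkn1c, 0.07 with Phlda2, -0.29 with Slc22a18 and -0.49 with Ascl2.

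Genes that act with the members were read from 3 lists, chosen with results of these data known. Their counts are to be read beside the share of all genes called, which was 38.9% between genotypes at 96 h, 23.2% in mES cells, 61.6% and 41.9% between treatments at 96 h and 120 h, and 79.9% for endoderm cultures against mES cells. Of the 12 genes for insulin-like growth factor receptors, their signalling and the binding of Igf2 mRNA, 11 were tested at 96 h between the genotypes, and 3 were higher and 2 lower in Hox-/-, 5 of 11 beside 38.9% of all genes (median 0.08 against 0.03). The most significant were Igf2bp2, an Igf2 mRNA-binding protein (-0.56 ± 0.0524 SE, adjusted p 8.55e-13), and Lin28b, an RNA-binding protein that blocks let-7 (0.36 ± 0.0485 SE, adjusted p 2.23e-08). In mES cells Igf2r, the receptor that clears IGF2, was higher in Hox-/- (0.55 ± 0.054 SE, adjusted p 4.54e-10), as was Igf1r (0.48 ± 0.0984 SE, adjusted p 0.000349). Under Activin A at 96 h 8 of 11 were lower than under Chiron and 0 higher (1 of 11 higher and 7 lower at 120 h); Igf2bp2 was lower there (-1.27 ± 0.0628 SE, adjusted p 1.49e-14) and rose over time in wild-type Activin A gastruloids (1.22 ± 0.0476 SE, adjusted p 7.79e-28). From mES cells to wild-type endoderm cultures 10 of 11 rose and 1 fell, beside 79.9% of all genes called, with Irs1 going from 0.3158 ± 0.117 to 61.73 ± 1.77 CPM (7.43 ± 0.163 SE, adjusted p 6.59e-19).

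The 12 cell cycle genes listed as partners of p57, which include its relatives Cdkn1a and Cdkn1b, were all tested. In Hox-/- 96 h gastruloids 7 were higher and 1 lower (median 0.20 against 0.03 over all genes), led by Ccnd2, a D-type cyclin (378.1 ± 22.8 against 211 ± 2.97 CPM; 0.89 ± 0.039 SE, adjusted p 4.07e-25), and Cdkn1a, another kinase inhibitor (430.8 ± 9.56 against 282.3 ± 6.43 CPM; 0.66 ± 0.0365 SE, adjusted p 5.08e-21). Both Cdkn1a and Cdkn1c restrain the cell cycle, and they differed in opposite directions here. In mES cells 0 were higher and 3 lower, 3 of 12 beside 23.2% of all genes and so near the background, with Cdk4 (-0.21 ± 0.04 SE, adjusted p 0.000177) and Ccnd1 (-0.19 ± 0.0485 SE, adjusted p 0.00335) showing small differences. Under Activin A against Chiron 2 were higher and 7 lower at 96 h, among them Cdk6 (-1.34 ± 0.0651 SE, adjusted p 1.12e-14) and Ccnd2 (-0.88 ± 0.0452 SE, adjusted p 2.98e-14).

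The list for imprint upkeep held 13 genes, among them Tet1 and Tet2, which act in demethylation, and the imprinted gene Plagl1. Between the genotypes at 96 h 12 of the list were tested, with 3 higher and 4 lower in Hox-/- (median 0.04 against 0.03). The lower ones included Dnmt3b, a de novo DNA methyltransferase (282.7 ± 0.782 against 446 ± 7.14 CPM; -0.61 ± 0.0373 SE, adjusted p 3.93e-19), and Zfp57, which binds methylated imprint control regions (30.6 ± 2.42 against 61.09 ± 3.97 CPM; -0.93 ± 0.0611 SE, adjusted p 4.35e-18). In mES cells 4 were higher and 6 lower, with Dnmt3a (78.72 ± 0.609 against 48.03 ± 3.62 CPM; 0.71 ± 0.0665 SE, adjusted p 2.1e-10) and Plagl1, an imprinted zinc finger gene (222.8 ± 4.41 against 149.1 ± 0.137 CPM; 0.58 ± 0.0484 SE, adjusted p 1.2e-11), both higher in Hox-/-. Plagl1 rose in wild-type Activin A gastruloids, from 4.289 ± 0.0924 to 37.19 ± 1.82 CPM (3.04 ± 0.111 SE, adjusted p 3.85e-29), and it rose also in Chiron gastruloids, where H19 did not pass (2.37 ± 0.0784 SE, adjusted p 1.56e-17). From mES cells to wild-type endoderm cultures 3 of 13 rose and 9 fell, among them Uhrf1 (-2.24 ± 0.0482 SE, adjusted p 4.99e-19) and Tet2 (-3.52 ± 0.0814 SE, adjusted p 1.27e-18).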

How the data were processed

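RNA of 22 libraries was sequenced, and the authors deposited whole-number counts per Ensembl gene with no normalization, and FPKM, which are scaled for transcript length and depth. Per the submitters' processing notes, mm10, cutadapt 1.16, STAR and Cufflinks 2.2.1 were named; the counting tool, its strand setting and the annotation are not given in the sources used here. CPM are counts over the library total. Counts were tested with edgeR 4.0.16 (R 4.3.3; filterByExpr, TMM, quasi-likelihood test, Benjamini-Hochberg adjustment over all genes tested, called at 0.05). The mES table was fitted alone, each gastruloid table over its 4 groups, and mES with endoderm jointly. Alternatives used limma 3.58.1 on FPKM and DESeq2 1.42.0. Scripts were tested on simulated data. Intervals cover counting error only, since reads carry no molecular identifiers. Same-numbered replicates did not deviate together (correlations -0.20 to 0.21).

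Named genes are the 7 members; per tested comparison up to 3 neighbours and 2 genes per list with the smallest p; the genes most like each member; and fixed markers. The members and lists were chosen with earlier results of these data known. Gene models for overlaps were GENCODE M21.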

Additional observations from a re-analysis of the deposited data

Results flagged for a closer look

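In wild-type gastruloids the effect of Activin A against Chiron differed between 120 h and 96 h for 4 of the 6 genes other than H19 by the interaction test. The difference on the log2 scale was 4.71 for H19, 4.50 for Igf2, -1.48 for Cdkn1c, 2.63 for Phlda2 and 2.88 for Slc22a18. The value for H19 is a description, since its 120 h Activin A libraries are among those that chose it. The value for Slc22a18 involves a group at the floor, ran from 1.78 to 6.72 with a library left out and kept its call in 11 of 15 alternatives; those of the other 4 genes kept theirs in all 16.

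The genotypes differed in opposite directions at the 2 times of the Activin A gastruloids for Igf2: the log2 fold change of Hox-/- over wild type was -1.09 at 96 h and 0.40 at 120 h, with no overlap of libraries at either time, and the difference between the times was not tested. Phlda2 and Ascl2 went opposite ways over time in the genotypes. Phlda2 changed by -1.50 from 96 h to 120 h in wild type and by 0.96 in Hox-/-, and Ascl2 by 0.20 in wild type, which did not pass, and by -2.30 in Hox-/-, where 2 counts remained at 120 h and the size depends on the fit; neither difference was tested.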

How the results depend on the processing

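Counts here include H19, also where the report gives it as a description. Of 42 calls on the 7 genes, 30 held in every alternative run that gave the gene an adjusted p, and 0 reversed. Runs that dropped the gene or gave it no adjusted p were left out, so some calls were checked in fewer runs. In mES cells the members called fell from 3 to 1 with at least 10 counts required in every library, and to 0 with DESeq2 (which gave an adjusted p for H19 and Kcnq1ot1 alone, so the 3 could not pass), 0 with limma on log2(FPKM + 1) and 0 with limma on log2(FPKM + 0.1), which tested H19 and Phlda2 alone; with a library left out they ranged from 0 to 2. For Activin A against Chiron at 120 h they went from 5 to 3 with the 10-count filter and with DESeq2, and from 3 to 5 with a library left out. Over time in wild-type Activin A gastruloids they went from 5 to 3 with limma on log2(FPKM + 0.1), and for endoderm against mES from 7 to 2 with the 10-count filter, which tests fewer genes.

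The log2 values that changed sign were uncalled or described in the report. H19 in mES cells became 0.04 with limma on log2(FPKM + 0.1) and ranged from -0.52 to 0.61 with a library left out, and Cdkn1c there became 0.02 with limma on log2(FPKM + 1). Over time under Chiron, Igf2 became 0.52 with limma at either pseudocount and ranged from -0.30 to 0.02 with a library left out, H19 from -0.17 to 0.32, and Ascl2 became 0.01 with limma on log2(FPKM + 1). Kcnq1ot1 ranged from -0.26 to 0.07 for treatment at 120 h with a library left out; its interaction became -0.02 with DESeq2's size factors in edgeR, -0.002 with library totals, -0.01 with DESeq2 and -0.01 with limma on log2(FPKM + 1), and ranged from -0.13 to 0.20. Among described values, Kcnq1ot1 between genotypes at 120 h became -0.004 with library totals, Igf2 between genotypes in endoderm cultures ranged from -0.45 to 0.06, and Slc22a18 over time in Hox-/- gastruloids, at the floor, from -4.28 to 0.30. The cause of these changes was not tested.

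With a replicate block the members called went from 5 to 6 for treatment at 120 h (H19, 0.22) and from 4 to 5 over time under Chiron (Igf2 -0.15, adjusted p 0.0323), and no other call changed; same-numbered libraries share only a number. Genes called over the whole table in mES cells were 3168, against 1098 with DESeq2, 52 and 372 with limma, and 1477 and 1690 without the first and the second wild-type library. At 96 h between genotypes they were 6546, against 3647 with DESeq2 and 3078 and 2787 with limma, and for treatment at 96 h 10655 against 6670 with limma on log2(FPKM + 0.1). Library totals as the only scaling moved the median of all genes by over 0.1 in 3 comparisons: from -0.0431 to 0.0612 over time under Chiron, from 0.0675 to 0.1846 for wild-type endoderm against mES, and from -0.0205 to -0.1317 between genotypes at 120 h. Genes at a few counts, such as Slc22a18 and Ascl2, are limited by depth.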
